A study of Mus with 9 samples.

Results

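AMP-activated protein kinase (AMPK) is an energy-sensing enzyme, and the 10 genes described here encode its subunits and the kinases that switch it on. They were taken by name from the 54532 genes of the deposited table, and no measured value entered the rule, although earlier results of these data were known when the list was drawn up: the catalytic subunits Prkaa1 (α1) and Prkaa2 (α2), the scaffold subunits Prkab1 (β1) and Prkab2 (β2), the nucleotide-binding subunits Prkag1 (γ1) and Prkag2 (γ2), the upstream kinases Stk11 (LKB1) and Camkk2 (CaMKK2), and the LKB1 partners Cab39 (MO25α) and Strada (STRADα). All 10 passed the filter on low counts, with 56 counts in the lowest library of Prkab2 and 4703 in the highest of Prkaa2.

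RNA of kidney from 9 male C57BL/6 mice was sequenced, 1 library per mouse, with 3 mice in each of the groups 18 mo, 21 mo and 21 mo/O304. O304 is a small molecule that raises AMPK activity by slowing removal of the activating phosphate from the α-subunit. Every mouse had 1 kidney removed at 18 months of age, so all groups, the youngest included, carried a remnant kidney. The 18 mo mice were killed 1 week after the operation. The 21 mo mice were given saline into the peritoneum daily up to the age of 21 months, and the 21 mo/O304 mice received the compound by that route over the same time, at a daily dose of 10 mg/kg. The 18 mo and 21 mo groups therefore differed in age, in time since surgery and in the injections, which cannot be told apart. No untreated mouse with both kidneys was among the libraries.

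AMPK works as a heterotrimer of an α, a β and a γ subunit. When ATP is used up, AMP and ADP bind the γ subunit, and the α subunit is held phosphorylated on its activation loop. LKB1 adds that phosphate as a complex with STRAD and MO25, whereas CaMKK2 adds it when calcium rises. The active enzyme shuts off lipid synthesis, promotes fatty acid oxidation and starts autophagy, and the proximal tubule, which depends on fatty acid oxidation, is a main site of energy use in the kidney. Activation is a change of the protein, and mRNA levels do not measure it.

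The libraries held from 15636378 to 18396725 counts, and 1 count was worth from 0.0458 to 0.0669 CPM (counts scaled to the library size, after scaling by the trimmed mean of M-values, TMM). The label kidney was borne out by the markers: all 10 proximal tubule markers were detected in every library. Their summed level was 14428, 17665 and 16174 CPM in the 18 mo libraries and 16201, 16378 and 16727 CPM in the 21 mo/O304 libraries. In the 21 mo group it was 15683, 7445 and 1961 CPM. The 4 markers of injured tubule (Havcr1, Lcn2, Krt20 and Vcam1) together reached 67.6, 1063 and 1476.5 CPM in these same 3 libraries, against 39.8 to 60.2 CPM in every other library. Replicates 2 and 3 of the 21 mo group thus stood apart from the other 7 libraries, and replicate 1 lay near the 18 mo group in both lists. Macrophage markers (6 genes) summed to 684 to 3319.5 CPM in the 21 mo group, 267 to 450.4 CPM in the 18 mo group and 506 to 533 CPM in the 21 mo/O304 group. Adipocyte markers (8 genes, 6 tested) summed to 64.3 to 120.5 CPM at 18 mo, 37.4 to 133 CPM at 21 mo and 141 to 393 CPM with O304, and Lep was at 0 in every 21 mo library. In bulk RNA, fewer cells of a type and less RNA per cell cannot be told apart.

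Levels of different genes were compared as the deposited FPKM values, which divide by gene length and library size. In the 18 mo kidneys Prkaa2 was the highest of the 10, at 24.6 ± 3.76 FPKM (SD, n = 3 here and for every mean ± SD that follows), and its range overlapped that of Stk11, at 22.2 ± 1.53 FPKM. Cab39 (15.9 FPKM) and Prkab1 (15.7 FPKM) came next with overlapping ranges, and below them Prkag1 at 11.05 FPKM. Prkaa1 and Prkag2, at 6.50 and 6.31 FPKM, overlapped each other. Strada (3.14 FPKM), Camkk2 (1.83 FPKM) and Prkab2 (1.12 FPKM) formed the low end, each apart from its neighbour.

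At 21 mo the ranges at the top of that order overlapped. Prkaa2 (19.5 ± 10.5 FPKM), Cab39 (19.4 ± 0.648 FPKM), Prkab1 (19.2 ± 3.24 FPKM) and Stk11 (18.2 ± 1.35 FPKM) formed a run in which each overlapped its neighbours. Stk11 lay apart from Prkag1 below it, but the wide range of Prkaa2, 9.60 to 30.6 FPKM, overlapped that of Prkag1, 8.43 to 12.0 FPKM. Strada, Camkk2 and Prkab2, at 2.54, 2.32 and 1.52 FPKM, formed another run of overlapping neighbours. In the 21 mo/O304 kidneys Prkaa2 was at 31.2 ± 2.76 FPKM, and its range lay apart from that of the next gene, Stk11, at 20.1 ± 2.02 FPKM. The order below it was Cab39 (18.7 FPKM), Prkab1 (15.5 FPKM), Prkag1 (9.03 FPKM), Prkaa1 (7.83 FPKM), Prkag2 (6.50 FPKM), Strada (2.51 FPKM), Camkk2 (1.44 FPKM) and Prkab2 (0.905 FPKM). Of these only Stk11 with Cab39 and Prkag1 with Prkaa1 overlapped.

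**Figure D1:**
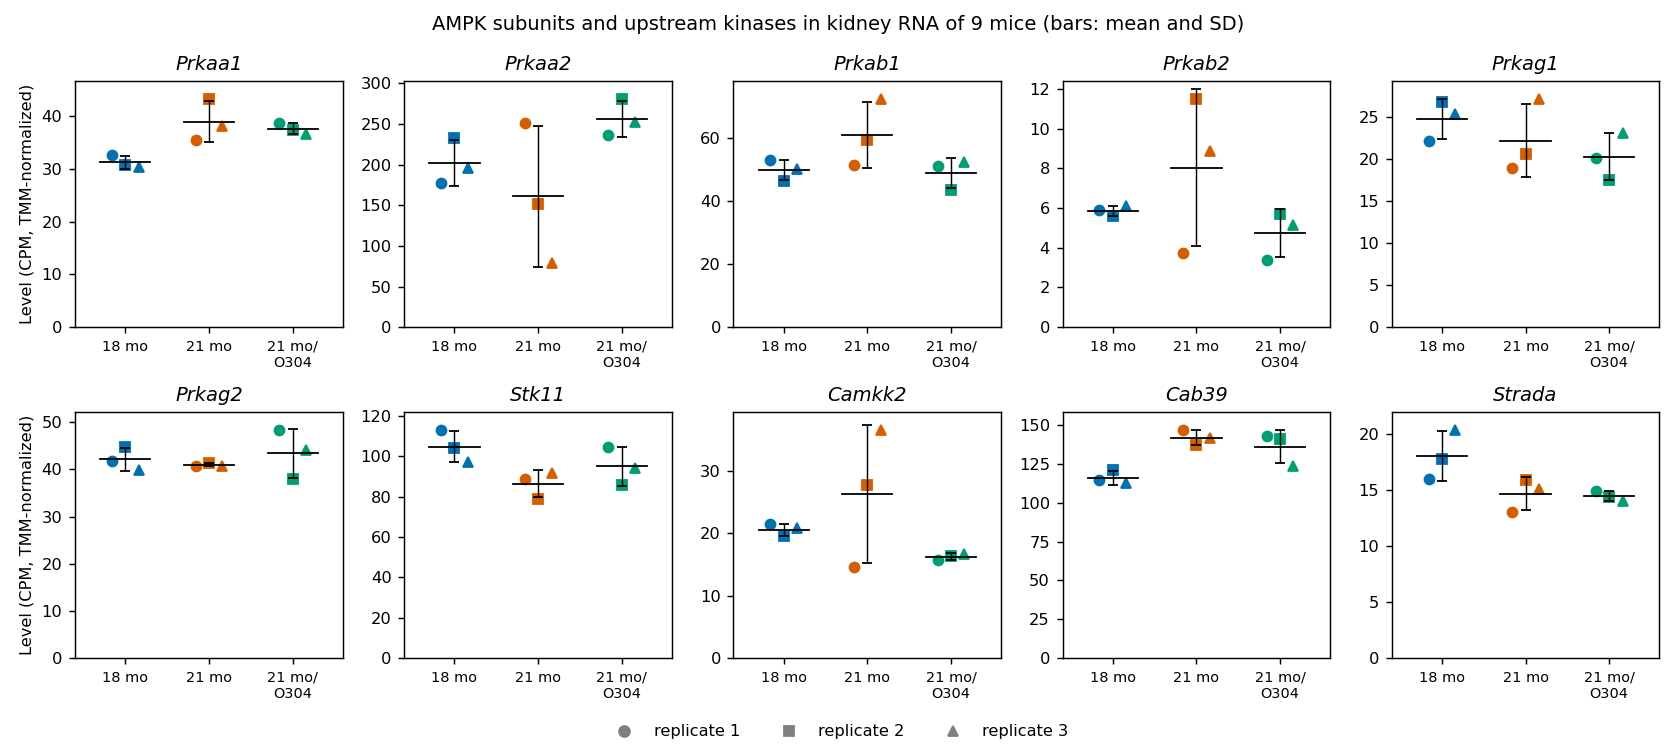
Level of each of the 10 AMPK genes in CPM (vertical axis, from 0) in each kidney library, by group (horizontal axis), with the replicate number given by the marker shape and the group mean and SD as black bars. Prkaa2, Prkab2 and Camkk2 are spread widely over the 3 mice of the 21 mo group, while Prkag2 lies between 40.7 and 41.3 CPM there.

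None of the 10 genes passed an adjusted p under 0.05 in any of the 3 comparisons (edgeR's quasi-likelihood test, Benjamini-Hochberg over 15902 genes). Over all genes 0.0189% were called at 21 mo relative to 18 mo, 0.0% with O304 relative to 21 mo and 0.0% with O304 relative to 18 mo. At an unadjusted p under 0.05 there were 2 members (Prkaa1 and Cab39) of 10, 1 (Camkk2) and 1 (Prkaa1) in these comparisons, beside 26.1%, 20.7% and 9.66% of all genes. DESeq2 called 0 members in each comparison, with 12.3%, 6.07% and 0.869% of all genes. No member was called either with every gene of at least 1 count tested (2.04%, 0.0602% and 0.0% of all genes), with at least 10 counts required in every library (0.0148% in the first comparison and 0.0% in the others), or on log2(FPKM + 1) and log2(FPKM + 0.1) with limma (0.0209% and 0.0279% in the first comparison and 0.0% in the others). With only the 6 libraries of a comparison fitted, again 0 members were called, with 0.0%, 0.0% and 0.144% of all genes. At an unadjusted p under 0.05 the members' shares did not exceed the background for 21 mo against 18 mo or for O304 against 21 mo. Under DESeq2 they did not exceed it in any comparison. The median log2 fold change of the 10 was 0.12, −0.06 and −0.08, against 0.03, −0.02 and 0.00 over all genes tested. The 3 comparisons share groups, so that each group enters 2 of them.

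The result depended on replicate 1 of the 21 mo group. Without that library, 2 members were called for 21 mo against 18 mo (25.4% of all genes) and 4 for 21 mo/O304 against 21 mo (23.1% of all genes), and 0 for 21 mo/O304 against 18 mo. Of 10 members, the 4 exceeded the share of all genes and the 2 did not. No other library changed the count of called members when left out, and 0.0% to 0.806% of all genes were then called for 21 mo against 18 mo and at most 0.0744% in the other comparisons. The fit with limma voom and a quality weight for each library called 9 and 5 of the 10 members in the first 2 comparisons. These counts exceeded the 52.9% and 41.1% of all genes called there. In the third it called 0, beside 2.61%. In that fit replicate 2 of the 21 mo group had a weight of 9.11, replicate 1 a weight of 0.223 and replicate 3 a weight of 0.132, so the 21 mo mean rested mostly on a single mouse.

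**Figure D2:**
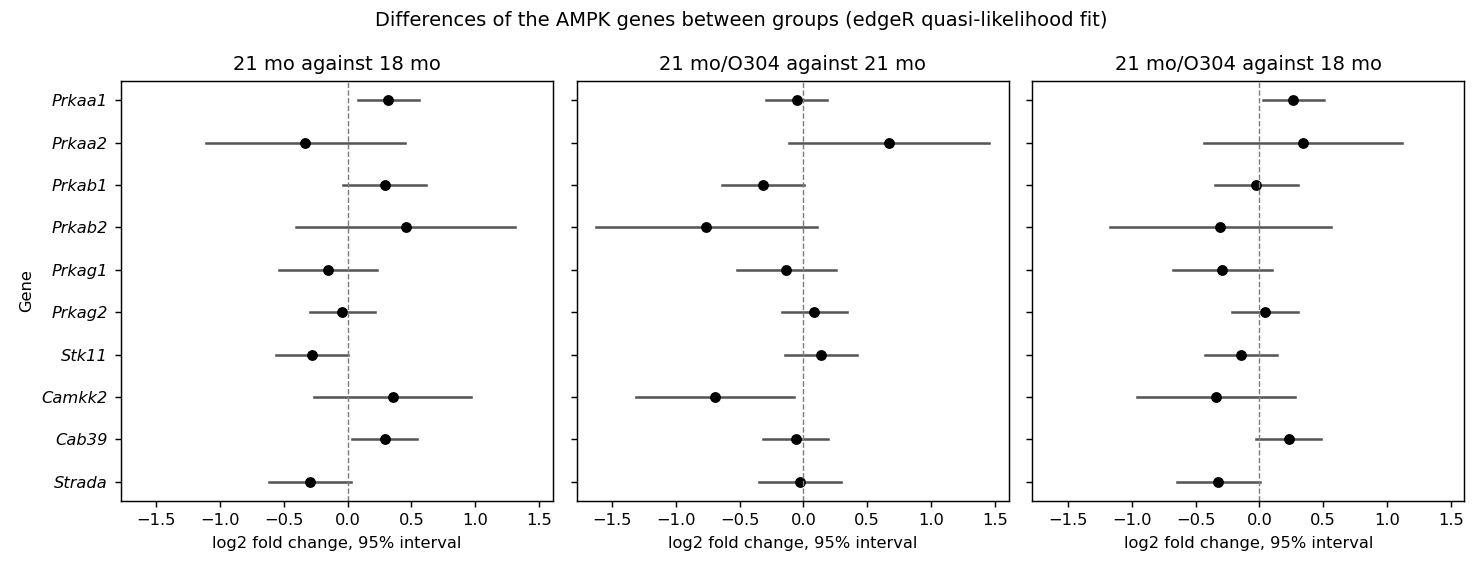
log2 fold change of each AMPK gene (horizontal axis, edgeR) with its 95% interval (grey line), 1 panel per comparison and 1 gene per line. The widest intervals are those of Prkaa2, Prkab2 and Camkk2, and no gene passed the adjusted threshold in any panel.

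Prkaa2 encodes the α2 catalytic subunit and lies on chromosome 4 from 105029874 to 105109890 on the minus strand (GRCm38/mm10 in the submitters' processing notes, as for all coordinates here), where it overlaps no other annotated gene. It was measured at 177, 233 and 196 CPM in the 18 mo libraries, at 251, 151 and 79.5 CPM in the 21 mo libraries and at 236, 280.3 and 252 CPM in the 21 mo/O304 libraries. Replicates 2 and 3 of the 21 mo group were the lowest of the 9, and replicate 1 lay within the range of the O304 group. With O304 the fitted level was 1.59 times that at 21 mo, or 0.67 on the log2 scale (SE 0.35, 95% interval −0.11 to 1.45, adjusted p = 0.290). Once replicate 1 of the 21 mo mice was left out this was 1.14 (adjusted p = 0.0211), and without replicate 3 it was 0.35 (adjusted p = 0.481). Each O304 library also lay above each 18 mo library, but the log2 fold change was 0.34 (SE 0.34) and its adjusted p of 0.797 misses the threshold.

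The low Prkaa2 libraries were also those low in proximal tubule markers. The 21 mo mice with 251, 151 and 79.5 CPM of Prkaa2 had marker sums of 15683, 7445 and 1961 CPM. Distal convoluted tubule markers were also lowest in replicates 2 and 3 of the 21 mo group, at 526 and 537 CPM. Per 1000 CPM of proximal tubule markers, Prkaa2 was at 12.3, 13.2 and 12.1 CPM at 18 mo and 14.6, 17.1 and 15.05 CPM with O304. At 21 mo it was at 16.03, 20.3 and 40.5 CPM. Any gene that falls less than the markers rises in this ratio, so it does not show whether Prkaa2 was low. This ratio was chosen after the values were seen, and the part of tubule content in the Prkaa2 difference was not tested.

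**Figure D3:**
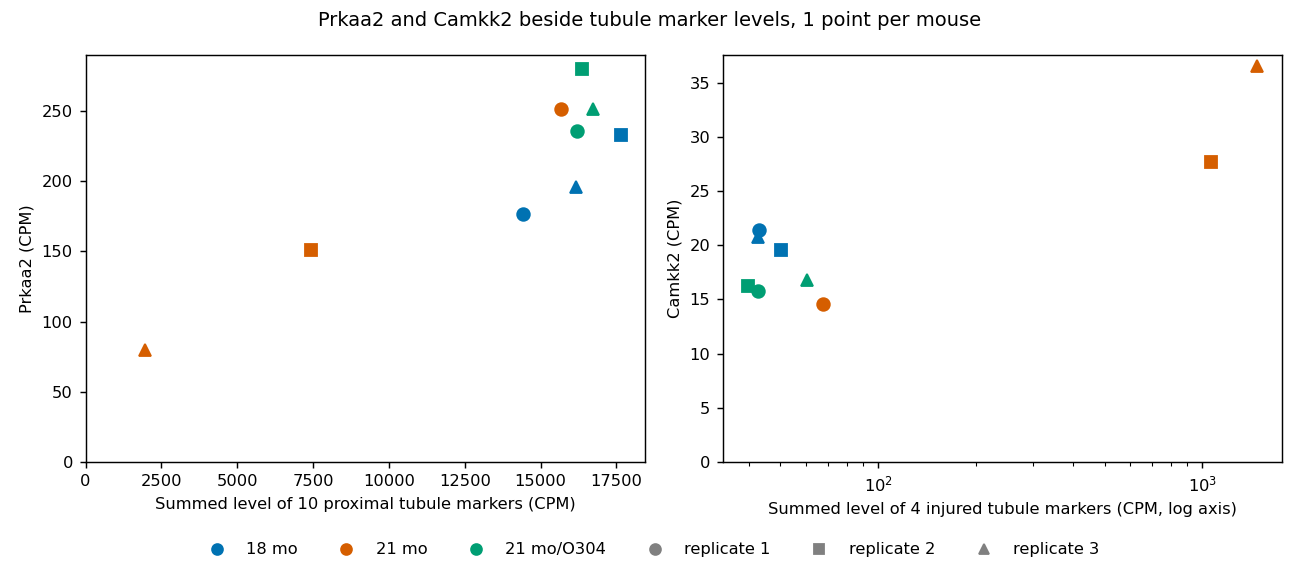
Left, Prkaa2 in CPM (vertical axis) against the summed CPM of 10 proximal tubule markers (horizontal axis). Right, Camkk2 in CPM against the summed CPM of 4 injured tubule markers (log axis). Each point is 1 mouse, coloured by group and shaped by replicate number, and replicates 2 and 3 of the 21 mo group lie away from the other 7 mice in both panels.

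Prkaa1 encodes the α1 catalytic subunit and lies on chromosome 15 from 5143861 to 5181899 on the plus strand. It was at 32.6, 30.7 and 30.3 CPM in the 18 mo libraries, at 35.5, 43.1 and 38.2 CPM in the 21 mo libraries and at 38.7, 37.3 and 36.6 CPM with O304. All 6 libraries of the older groups lay above all 3 of the 18 mo group, a separation that 13.5% of all genes showed upward for 21 mo and 13.2% for 21 mo/O304. With O304 against 18 mo the log2 fold change was 0.27 (SE 0.11, 95% interval 0.03 to 0.51, unadjusted p = 0.0324, adjusted p = 0.476). O304 against 21 mo gave −0.05 (SE 0.11, 95% interval −0.29 to 0.19). Unlike Prkaa2, Prkaa1 was not low in the 21 mo libraries with few proximal tubule markers. For 21 mo against 18 mo the log2 fold change of Prkaa1 was 0.32 (SE 0.11, adjusted p = 0.112) with all libraries. It was 0.40 (adjusted p = 0.0323) when replicate 1 of the 21 mo mice was left out and 0.22 (adjusted p = 0.289) when replicate 2 was.

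The α2 share of the catalytic mRNA followed from these levels. Prkaa2 made up 76.0%, 81.6% and 79.1% of the summed FPKM of Prkaa1 and Prkaa2 at 18 mo, 80.6%, 67.2% and 54.9% at 21 mo, and 78.1%, 81.4% and 80.1% with O304. α2 was thus the major form in every library, and its share was lowest in replicates 2 and 3 of the 21 mo group. The mean share was 11.3 percentage points lower at 21 mo than at 18 mo (exact permutation test, two-sided, p = 0.3) and 12.3 points higher with O304 than at 21 mo (exact permutation test, p = 0.3). The groups overlapped in both comparisons, and 0.1 is the smallest p that 3 mice against 3 can give. O304 and 18 mo differed by 0.959 points (exact permutation test, p = 0.7). After adjustment over the 9 share comparisons every p was 0.7. Summed catalytic mRNA was 31.1 ± 3.68 FPKM at 18 mo, 27.6 ± 10.2 FPKM at 21 mo and 39.0 ± 2.66 FPKM with O304, and the lowest O304 library (36.8 FPKM) lay above the highest 18 mo library (35.2 FPKM).

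**Figure D4:**
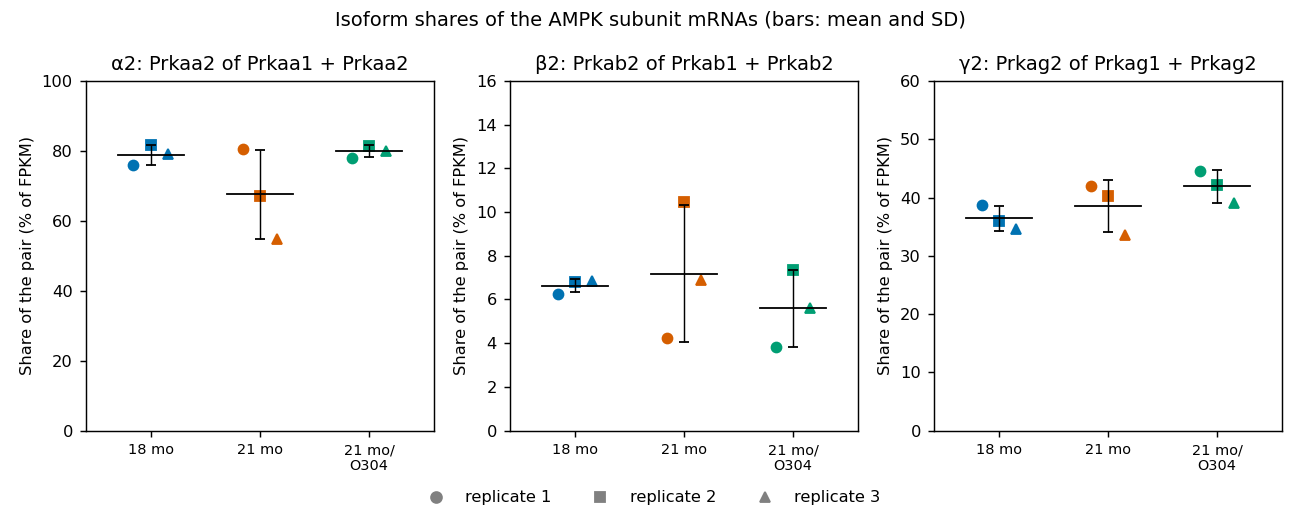
Share of the α2, β2 and γ2 isoform in the summed FPKM of its subunit pair (vertical axes, percent, from 0, with a different scale in each panel), by group, with 1 point per mouse and the mean and SD as black bars. The α2 share lies between 76.0% and 81.6% in 7 libraries and at 67.2% and 54.9% in replicates 2 and 3 of the 21 mo group.

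The β subunits hold the trimer together and bind glycogen. Prkab1, on chromosome 5 from 116013586 to 116024508 on the minus strand, was at 52.9, 46.3 and 50.01 CPM at 18 mo, at 51.2, 59.2 and 72.1 CPM at 21 mo and at 51.0, 43.4 and 52.3 CPM with O304. Only replicates 2 and 3 of the 21 mo group stood above the range of the others. Prkab1 gave a log2 fold change of −0.32 with O304 against 21 mo (SE 0.14, 95% interval −0.64 to 0.01, adjusted p = 0.250), and with replicate 1 of the 21 mo mice left out it was −0.43 (adjusted p = 0.0476). When replicate 3 was left out instead it was −0.17 (adjusted p = 0.560).

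Prkab2, on chromosome 3 from 97658193 to 97673812 on the plus strand, was the least expressed member and rested on 56 to 202 counts per library. It was at 5.88, 5.61 and 6.11 CPM at 18 mo, at 3.75, 11.5 and 8.89 CPM at 21 mo and at 3.37, 5.72 and 5.16 CPM with O304. The 21 mo mice thus lay on both sides of the 18 mo range. Its log2 fold change with O304 against 21 mo was −0.76 (SE 0.38, 95% interval −1.63 to 0.10, adjusted p = 0.280), and with replicate 1 of the 21 mo mice left out it was −1.11 (adjusted p = 0.0216). When replicate 2 was left out instead it was −0.41 (adjusted p = 0.583).

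β1 was the major β mRNA in every library. The β2 share was 6.27%, 6.79% and 6.85% at 18 mo, 4.21%, 10.4% and 6.90% at 21 mo, and 3.83%, 7.34% and 5.60% with O304. The 3 differences in its mean ran from −1.60 to 0.552 percentage points, and the groups overlapped in each comparison. Exact permutation tests gave p = 0.7 for 21 mo against 18 mo, 0.6 for O304 against 21 mo and 0.4 for O304 against 18 mo.

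The γ subunits carry the sites that bind AMP, ADP and ATP. Prkag2, on chromosome 5 from 24862744 to 25100642 on the minus strand, was the steadiest member: its highest library was 1.27 times its lowest. Its levels were 41.9, 44.7 and 39.8 CPM at 18 mo, 40.8, 41.3 and 40.7 CPM at 21 mo and 48.3, 37.9 and 44.1 CPM with O304. Within the 21 mo group, where the median coefficient of variation of all genes was 25.9%, that of Prkag2 was 0.785%. The 95% intervals of its log2 fold changes reached from −0.30 to 0.22 for 21 mo against 18 mo and from −0.17 to 0.34 for O304 against 21 mo.

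Prkag1, on chromosome 15 from 98812797 to 98831521 on the minus strand, was at 22.2, 26.7 and 25.3 CPM at 18 mo, at 18.9, 20.6 and 27.1 CPM at 21 mo and at 20.1, 17.5 and 23.1 CPM with O304. All groups overlapped, and its largest log2 fold change was −0.29 for O304 against 18 mo (SE 0.17, 95% interval −0.68 to 0.10, adjusted p = 0.628). Prkag2 made up 38.8%, 35.9% and 34.5% of the summed FPKM of Prkag1 and Prkag2 at 18 mo, 42.0%, 40.3% and 33.5% at 21 mo, and 44.6%, 42.1% and 39.0% with O304. A further γ gene, Prkag3, at 3.62 to 8.94 CPM, was not part of this pair. On this per-length scale γ1 was the larger part of the pair in every library, whereas Prkag2 held 60.03% to 70.6% of the summed CPM, which is not divided by length. The γ2 share was 5.49 percentage points higher with O304 than at 18 mo, without overlap (exact permutation test, p = 0.1, the smallest possible, and 0.7 after adjustment).

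LKB1 is the main upstream kinase, and STRADα and MO25α hold it in its active form. Stk11, on chromosome 10 from 80115803 to 80130682 on the plus strand, was at 113, 104 and 97.2 CPM at 18 mo, at 88.7, 78.8 and 91.4 CPM at 21 mo and at 105, 85.6 and 94.3 CPM with O304. All 21 mo libraries lay below all 18 mo libraries, as for 15.3% of all genes. The log2 fold change was −0.28 (SE 0.12, 95% interval −0.56 to 0.00, unadjusted p = 0.05003, adjusted p = 0.192), and O304 against 21 mo gave 0.14 (SE 0.12, adjusted p = 0.522).

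Cab39, on chromosome 1 from 85793441 to 85851576 on the plus strand with no overlapping gene, was at 114, 121 and 113 CPM at 18 mo, at 147, 137 and 142 CPM at 21 mo and at 143, 141 and 124 CPM with O304. Both older groups lay above the 18 mo group, and the replicates were tight: the coefficient of variation at 21 mo was 3.34%. For 21 mo against 18 mo its log2 fold change was 0.29 (SE 0.11, 95% interval 0.04 to 0.54, unadjusted p = 0.0298, adjusted p = 0.151), and for O304 against 18 mo 0.23 (SE 0.11, adjusted p = 0.554). The direction of the first held in each fit that left out 1 library, from 0.27 to 0.32.

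Strada, on chromosome 11 from 106163330 to 106202168 on the minus strand, was at 15.9, 17.7 and 20.3 CPM at 18 mo, at 13.0, 15.9 and 15.1 CPM at 21 mo and at 14.9, 14.3 and 14.0 CPM with O304. The O304 libraries lay below the 18 mo libraries, and the 21 mo libraries nearly touched them, at 15.86 against 15.92 CPM. Its log2 fold change was −0.30 (SE 0.14, adjusted p = 0.225) for 21 mo and −0.32 (SE 0.14, adjusted p = 0.520) for O304, both against 18 mo. Strada shares 4761 bases with Ccdc47 on the same strand, which had 1622 to 2374 counts per library, so its count is uncertain. The genes of the LKB1 complex thus lay on opposite sides of the 18 mo level at 21 mo, Cab39 above it and Stk11 and Strada below it, with no adjusted p under 0.05.

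CaMKK2 is the calcium-dependent upstream kinase. Camkk2, on chromosome 5 from 122731170 to 122779409 on the minus strand with no overlapping gene, was at 21.4, 19.5 and 20.8 CPM at 18 mo, at 14.6, 27.7 and 36.5 CPM at 21 mo and at 15.8, 16.3 and 16.7 CPM with O304. Replicates 2 and 3 of the 21 mo group held the highest levels of the 9, and replicate 1 the lowest. The coefficient of variation was 42.0% at 21 mo, against 4.68% at 18 mo and 3.03% with O304. For O304 against 21 mo the log2 fold change was −0.69 (SE 0.27, 95% interval −1.31 to −0.08, unadjusted p = 0.0319, adjusted p = 0.212).

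The Camkk2 values depended on which 21 mo libraries were included. Without replicate 1 its log2 fold changes were 0.66 for 21 mo against 18 mo (adjusted p = 0.0145) and −0.99 for O304 against 21 mo (adjusted p = 0.00653). Without replicate 3 they were 0.02 (adjusted p = 0.966) and −0.37 (adjusted p = 0.479). The high libraries were those with 1063 and 1476.5 CPM of injured tubule markers and 1086 and 3319.5 CPM of macrophage markers. Replicate 1 of the 21 mo group, lowest in Camkk2, had 684 CPM of macrophage markers, more than any 18 mo or O304 library. Fibroblast markers summed to 130, 553 and 1308 CPM in replicates 1, 2 and 3 of the 21 mo group. The part of injured tubule, macrophages or fibroblasts in the Camkk2 difference was not tested. Each O304 library had less Camkk2 than each 18 mo library, as for 13.3% of all genes, and the log2 fold change was −0.34 (SE 0.27, adjusted p = 0.738).

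The spread within the 21 mo group set 3 members apart from the rest. The coefficient of variation there was 53.7% for Prkaa2, 49.0% for Prkab2 and 42.0% for Camkk2, above the median of 25.9% for all genes, and from 0.785% to 19.5% for the other 7 members. Across all 9 libraries the highest level was 3.52 times the lowest for Prkaa2, 3.40 times for Prkab2, 2.504 times for Camkk2 and 1.27 to 1.66 times for the other 7. Counting 21 mo against 18 mo, 4 of the 10 members had groups without overlap (Prkaa1 and Cab39 higher, Stk11 and Strada lower), beside 28.8% of all genes. For O304 against 21 mo there were 0, beside 21.3% of all genes (10.8% higher and 10.5% lower). For O304 against 18 mo there were 5 (Prkaa1, Prkaa2 and Cab39 higher, Camkk2 and Strada lower), beside 26.5% of all genes.

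The genes whose levels followed Prkaa2 most closely over the 9 libraries were Kif21a, a kinesin, Hus1, a DNA damage checkpoint clamp subunit, and Srr, serine racemase. The root mean square difference of their centred log2 CPM from that of Prkaa2 was 0.0695, 0.0815 and 0.0920 among 13157 protein-coding genes. Kif21a was at 84.1, 106 and 96.5 CPM at 18 mo, at 113, 67.1 and 36.6 CPM at 21 mo and at 114, 116 and 113 CPM with O304, and so was lowest in the same 2 libraries. The closest to Prkaa1 were Pdcd6ip (0.0604), which encodes the endosomal protein ALIX, Rnpc3 (0.0611), of the minor spliceosome, and Cnn3 (0.0636), an actin-binding calponin.

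Beyond the 10 members, 69 genes of the AMPK pathway were read as 6 lists, of which 67 were tested (not Brsk2 and Ampd1). None passed the adjusted threshold in any comparison. At an unadjusted p under 0.05, 4 were higher and 9 lower at 21 mo than at 18 mo, beside 14.0% and 12.0% of all genes. With O304 against 21 mo, 8 were higher and 8 lower, beside 8.27% and 12.4%. With O304 against 18 mo, 2 were higher and 5 lower, beside 4.33% and 5.33%. The median log2 fold change of the 67 was −0.16, 0.05 and −0.07 in these comparisons. Without replicate 1 of the 21 mo group, 3 higher and 7 lower genes were called in the first comparison. In the second 10 higher and 4 lower were called, and in the third 0. The shares of all genes were 25.4%, 23.1% and 0.0%, which the 67 did not exceed with both directions counted. The adenine nucleotide enzymes, 1 of the 6 lists, did exceed the first 2 shares in that setting. Of 9 tested, 1 higher and 3 lower were then called in the first comparison and 4 higher and 1 lower in the second. With all libraries 0 of the 9 were called. At an unadjusted p under 0.05, 1 was higher and 1 lower in each of these 2 comparisons, beside the shares of all genes given above. By direction, without replicate 1, all genes in the second comparison had 1741 higher and 2067 lower, whereas more of the 67 were higher. DESeq2, with all libraries, called 6 of the 67 for 21 mo against 18 mo (Lamtor2, Lamtor4, Mark1, Becn1 and Ampd3 among them), 6 for O304 against 21 mo (Mark1, Mlxipl, Srebf1, Lipe and Ampd3 among them) and 1 for O304 against 18 mo (Lipe), beside 12.3%, 6.07% and 0.869% of all genes.

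**Figure D5:**
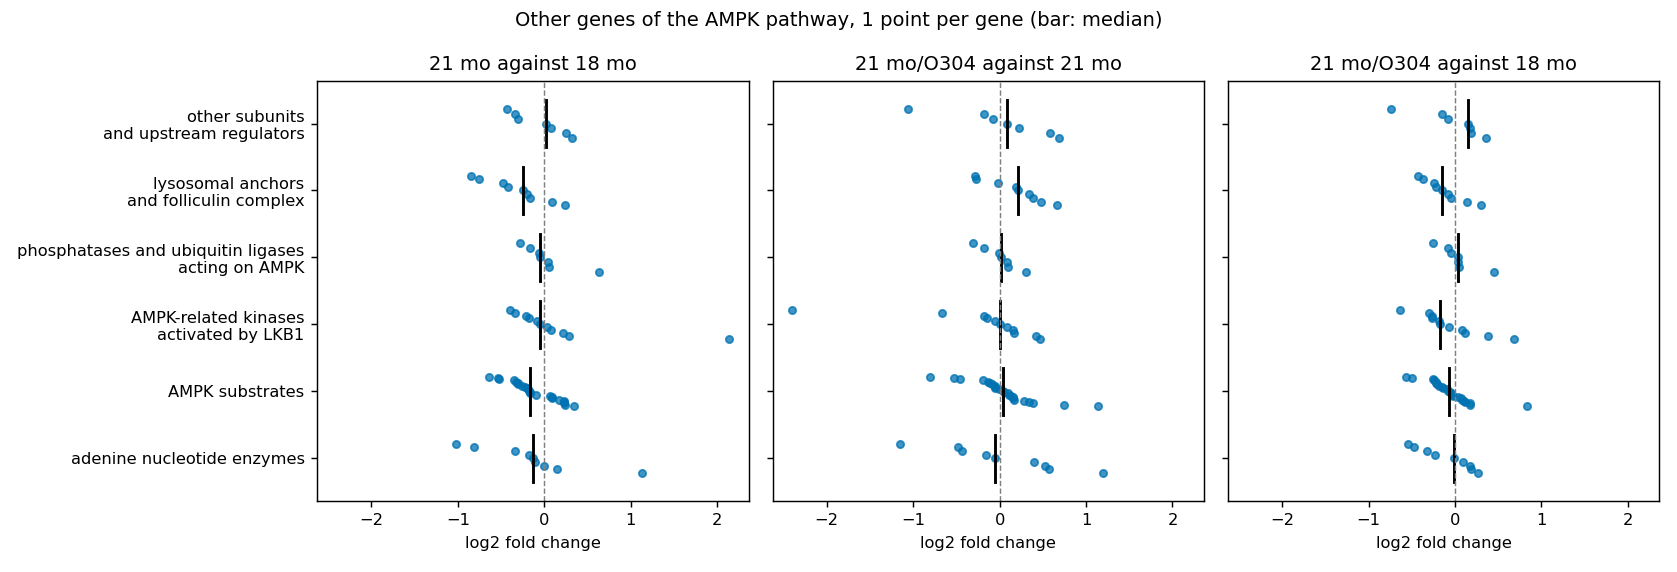
log2 fold change (horizontal axis, edgeR) of each tested gene in the 6 lists of other AMPK pathway genes, 1 panel per comparison and 1 point per gene, with the list median as a black bar. Mark1, at 2.14 and −2.40, is the outermost gene of the first and second panels.

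Adenine nucleotide enzymes set the AMP level that the γ subunits read. At 21 mo against 18 mo 1 of the 9 tested was higher and 1 lower at an unadjusted p under 0.05, beside 14.0% and 12.0% of all genes. Ampd3, an AMP deaminase, was at 19.0, 13.4 and 17.8 CPM at 18 mo, 22.7, 41.1 and 46.3 CPM at 21 mo and 20.004, 17.0 and 12.7 CPM with O304, with log2 fold changes of 1.13 for 21 mo against 18 mo (adjusted p = 0.0760) and −1.15 for O304 against 21 mo (adjusted p = 0.175). Ak4, a mitochondrial matrix kinase, was at 512, 187 and 27.6 CPM in the 21 mo libraries and between 436 and 701 CPM in the other 6. Prkaa2, Kif21a, Stradb, Mlxipl and the proximal tubule marker sum had the same order within the 21 mo group, so the order is not particular to Ak4 and Prkaa2.

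Lysosomal anchors bring AMPK and LKB1 together on the lysosome. Of the 9 genes tested in the list of these anchors and the folliculin complex, 1 was higher and 3 lower at 21 mo than at 18 mo. This was at an unadjusted p under 0.05, beside 14.0% and 12.0% of all genes. With O304 against 21 mo 3 were higher and 2 lower, beside 8.27% and 12.4%. Lamtor2, a Ragulator subunit, was at 99.7, 88.7 and 84.7 CPM at 18 mo, 61.6, 45.0 and 45.3 CPM at 21 mo and 66.9, 59.0 and 84.9 CPM with O304, with log2 fold changes of −0.85 for 21 mo against 18 mo (SE 0.18, adjusted p = 0.0626) and 0.47 for O304 against 21 mo (SE 0.18, adjusted p = 0.199). Lamtor4 had −0.48 and 0.33, while Lamtor3, of the same complex, had 0.24 and −0.28.

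Among the 24 substrates, 0 were higher and 4 lower at 21 mo than at 18 mo at an unadjusted p under 0.05, beside 14.0% and 12.0% of all genes. With O304 against 21 mo 2 were higher and 3 lower, beside 8.27% and 12.4%, which is near the background. Lipe, hormone-sensitive lipase, was at 17.0, 21.0 and 17.8 CPM at 18 mo, 15.7, 14.4 and 15.2 CPM at 21 mo and 42.4, 28.2 and 28.8 CPM with O304. All O304 libraries were above all others, and the log2 fold change against 21 mo was 1.14 (SE 0.18, adjusted p = 0.175). Lipe is also strongly expressed in fat, and all 6 tested adipocyte markers were higher with O304 than at 21 mo, 5 of them at an unadjusted p under 0.05. In the O304 replicates Lipe at 42.4, 28.2 and 28.8 CPM stood beside adipocyte sums of 393, 141 and 317 CPM. Replicate 1 of the 21 mo group had an adipocyte sum of 133 CPM and Lipe at 15.7 CPM. The sum can rest on few of the markers: in 18 mo replicate 1 it was 104 CPM with 5 of the 8 at 0 counts. The median log2 fold change of the 6 tested markers with O304 against 21 mo was 4.42. The part of fat in the Lipe difference was not tested. Mlxipl, the glucose-responsive lipogenic factor ChREBP, had −0.64 for 21 mo against 18 mo (adjusted p = 0.111) and 0.74 for O304 against 21 mo (adjusted p = 0.175). Srebf1, a lipogenic factor, had 0.23 and −0.80 (adjusted p = 0.525 and 0.175). Becn1, of the autophagy initiation complex, and Hdac5, a histone deacetylase, were lower at 21 mo by log2 fold changes of −0.35 and −0.32 (adjusted p = 0.0908 and 0.116).

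LKB1 also activates kinases related to AMPK, and of 11 tested 1 was higher and 1 lower in both 21 mo against 18 mo and O304 against 21 mo at an unadjusted p under 0.05, beside 14.0% and 12.0% of all genes in the first and 8.27% and 12.4% in the second. Mark1, a microtubule affinity-regulating kinase, was at 1.86, 0.555 and 2.04 CPM at 18 mo, 1.74, 3.98 and 13.9 CPM at 21 mo and 0.872, 1.13 and 1.72 CPM with O304, so its log2 fold changes of 2.14 and −2.40 (adjusted p = 0.126 and 0.181) rested mainly on replicate 3 of the 21 mo group. Sik1, a salt-inducible kinase, was at 60.1, 63.8 and 51.7 CPM at 18 mo, 62.9, 51.7 and 55.7 CPM at 21 mo and 70.5, 75.6 and 82.7 CPM with O304. The O304 group lay above both others, by 0.43 on the log2 scale against 21 mo (SE 0.13, adjusted p = 0.176).

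Of the 7 phosphatases and ligases that act on AMPK, 0 were higher and 1 lower with O304 than at 21 mo at an unadjusted p under 0.05, beside 8.27% and 12.4% of all genes. Ppp2cb, a catalytic subunit of protein phosphatase 2A, was at 61.8, 64.2 and 60.9 CPM at 18 mo, 61.7, 62.1 and 70.6 CPM at 21 mo and 52.0, 52.5 and 52.4 CPM with O304, which is −0.31 on the log2 scale against 21 mo (SE 0.0957, adjusted p = 0.177). Of the 7 remaining subunits and upstream regulators, Stradb, the second STRAD form, was at 42.1, 51.5 and 39.4 CPM at 18 mo, 49.0, 38.4 and 18.3 CPM at 21 mo and 53.3, 59.3 and 57.4 CPM with O304. Its log2 fold change with O304 against 21 mo was 0.69 (SE 0.30, adjusted p = 0.235), beside −0.03 for Strada. Tab2, a partner of the kinase TAK1, had 0.26 for 21 mo against 18 mo (adjusted p = 0.182), and Camkk1, the other CaMKK gene, had −1.06 for O304 against 21 mo (SE 0.51, adjusted p = 0.268) at 1.02 to 5.13 CPM.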

How the data were processed

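Total RNA was made into libraries with the NEBNext Ultra kit. Per the labels and the study's methods, the authors aligned paired-end reads with HISAT2 2.0.5 and counted them per gene with featureCounts 1.5.0-p3, and the deposited counts are not normalized. The deposited FPKM values divide each count by gene length and library size. The normalized group means, log2 fold changes and p-values in the same table are the authors' DESeq2 1.20.0 comparisons and were not used. Counting by strand is not given in the sources used here, and 7 of the 10 members overlap another annotated gene. For 6 of these the partner is on the opposite strand, with at most 10 counts per library, save Cbarp (48 to 197) beside Stk11, and Strada overlaps Ccdc47.

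Counts were tested with edgeR 4.0.16 (R 4.3.3, TMM factors, filterByExpr at a count of 10 and a total of 15), with all 9 libraries and 3 group means. The script was tested on simulated data. Alternatives used DESeq2 1.42.0, limma 3.58.1 (on log2(FPKM + 1) or log2(FPKM + 0.1), mean FPKM of at least 0.5), other filters and normalization, a replicate block, and each library left out. Isoform shares were compared by exact permutation. All members were named. From each pathway list up to 3 genes with the smallest p in each of 21 mo against 18 mo and 21 mo/O304 against 21 mo could be named, and for Prkaa1 and Prkaa2 the 3 most similar genes with a mean of at least 1 CPM. The members and lists were chosen with earlier results of these data known. One gene of the pathway lists that met this rule is not reported here.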

Additional observations from a re-analysis of the deposited data

How the results depend on the processing

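Of 540 alternative values of the members' log2 fold changes, 511 kept their direction and their side of the threshold, 20 newly passed it and 9 reversed. The count of members called was 0 in every comparison with DESeq2, upper-quartile factors, either filter, only the 6 libraries compared, and both FPKM fits. With upper-quartile factors 0.0189%, 0.0% and 0.0% of all genes were called, and the shares for the other settings are given above. Where almost no gene was called, a count of 0 tells nothing particular to the members. By unadjusted p it was 2 for 21 mo relative to 18 mo, 1 for O304 relative to 21 mo and 1 for O304 relative to 18 mo. All genes had 26.1%, 20.7% and 9.66% there. With limma voom and quality weights it was 9, 5 and 0, beside 52.9%, 41.1% and 2.61% of all genes. Leaving out 1 library gave 0 to 2, 0 to 4 and 0 to 0. All non-zero counts came without replicate 1 of the 21 mo group, where 25.4%, 23.1% and 0.0% of all genes were called. The cause was not tested.

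The reversals all concerned differences near 0. Prkag2 for 21 mo against 18 mo was 0.00214 with upper-quartile factors. With 1 library left out, Prkaa1 for O304 against 21 mo ranged from −0.12 to 0.035, Prkag1 from −0.25 to 0.044, Prkag2 from −0.017 to 0.16 and Strada from −0.11 to 0.040. For O304 against 18 mo Prkab1 ranged from −0.073 to 0.062 and Prkag2 from −0.038 to 0.14.

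Leaving out 1 library, the α2 share differed by −17.9 to −5.03 percentage points (21 mo against 18 mo), 5.98 to 18.8 (O304 against 21 mo) and −0.475 to 2.31 (O304 against 18 mo). The β2 share differed by −1.08 to 2.04, −3.08 to 0.032 and −1.92 to −0.163, and the γ2 share by 0.472 to 4.70, 0.784 to 5.02 and 4.13 to 6.93. The p values there cannot pass 0.05. The differences between groups kept every direction in shares of CPM.

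Same-numbered libraries had correlations of deviations from −0.13 to 0.175 over 9 pairs of libraries. The own number was the best of 3 candidates in 10 of 18 cases, so these values do not settle whether a weak pairing exists. The numbers were not taken to pair the mice. With the replicate block 0 members were called in each comparison, beside 0.0% of all genes in each. The α2 share differences of −11.3, 12.3 and 0.959 points had exact sign-flip p of 0.5, 0.5 and 0.5, where 0.25 is the smallest possible.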
